A study of Mus musculus with 10 samples.

Results

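The 41 mouse genes described here drive DNA replication and mitosis, and they were chosen by name from their roles. Each matched exactly 1 of the 55401 gene rows of the count table. By role, 22 act in replication, from origin licensing to entry into S phase, and 19 act in mitosis, from the cyclins that open it to the proteins that build the spindle. Their RNA was counted in sequencing libraries of forelimb-bud ectoderm at E9.75 (days of embryonic life), in 3 libraries from embryos with the genotype SP8&SP6_DOUBLE_KO (DKO) and 3 from WT littermates of the DKO embryos. The DKO embryos are labelled as lacking Sp8 and Sp6, zinc finger factors that limb bud ectoderm needs in order to form its distal signalling rim, the apical ectodermal ridge. The labels give no promoter, Cre driver, strain or litter for either group. Each replicate held the peeled ectoderm of about 2 forelimb buds, so a level is a mean over all ectodermal cells, and fewer cells of a type cannot be told apart from less RNA per cell. The 6 libraries are named by group and by the number of their column: DKO 17, DKO 40, DKO 41, WT 32, WT 53 and WT 56.

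A dividing cell switches these genes on in successive waves. E2F transcription factors switch on the replication genes as cells enter S phase, when origins have been licensed with the ring-shaped MCM helicase and DNA polymerases and nucleotides are needed. The mitosis genes follow in late S phase and G2 under the MuvB complex with B-Myb and FoxM1, and their products are largely destroyed or lost once the chromosomes have been separated. In a mixed tissue the RNA of either wave therefore depends on how many cells are in that part of the cycle. Limb bud outgrowth rests on cell division in both its layers, and signals from the ridge act on the division of the mesenchyme below it.

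None of the 41 genes passed the test between DKO and WT ectoderm, and their levels in the 2 groups lay close together. In edgeR's quasi-likelihood test with Benjamini-Hochberg adjustment over all 19126 genes tested, 0 of 41 passed an adjusted p of 0.05 in either direction. Of all genes tested, 4.51% passed (1.7% higher and 2.81% lower in DKO), and at that share few of 41 genes would pass. Of the 41, 4 (9.76%) had an unadjusted p under 0.05, against 18% of all genes tested (8.66% higher and 9.36% lower in DKO). DESeq2 and limma-voom also called 0 members, with 7 members each (17.1%) at an unadjusted p under 0.05, a share near the 18.4% by DESeq2 and 17.5% by limma-voom of all genes tested. The lowest edgeR adjusted p was 0.154, for Mcm10. The log2 fold changes, DKO minus WT, ran between -0.47 for Ccne2 and 0.35 for Mki67. Their median was -0.0080, beside 0.030 over all genes tested.

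The members had 469 to 63677 counts per library, and their intervals were narrow. The median standard error (SE) of a member's log2 fold change was 0.122, against 0.166 over the 9804 genes with 10 CPM (counts relative to the library total, scaled by TMM) or more in the higher group. Of those better expressed genes, 5.78% were called, and their median log2 fold change was -0.011. The 95% interval of every one of the 41 members lay within a 2-fold change in either direction. For 36 of 41 it lay within 1.5-fold, the other 5 being Mcm10, Pola1, E2f2, Ccne2 and Mki67, and for 4 of 41 within 1.2-fold. The furthest bounds were -0.94 for E2f2 and 0.69 for Mki67. All members together took 0.977% to 1.02% of the counts of a library, with overlapping ranges in the groups.

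**Figure D1:**
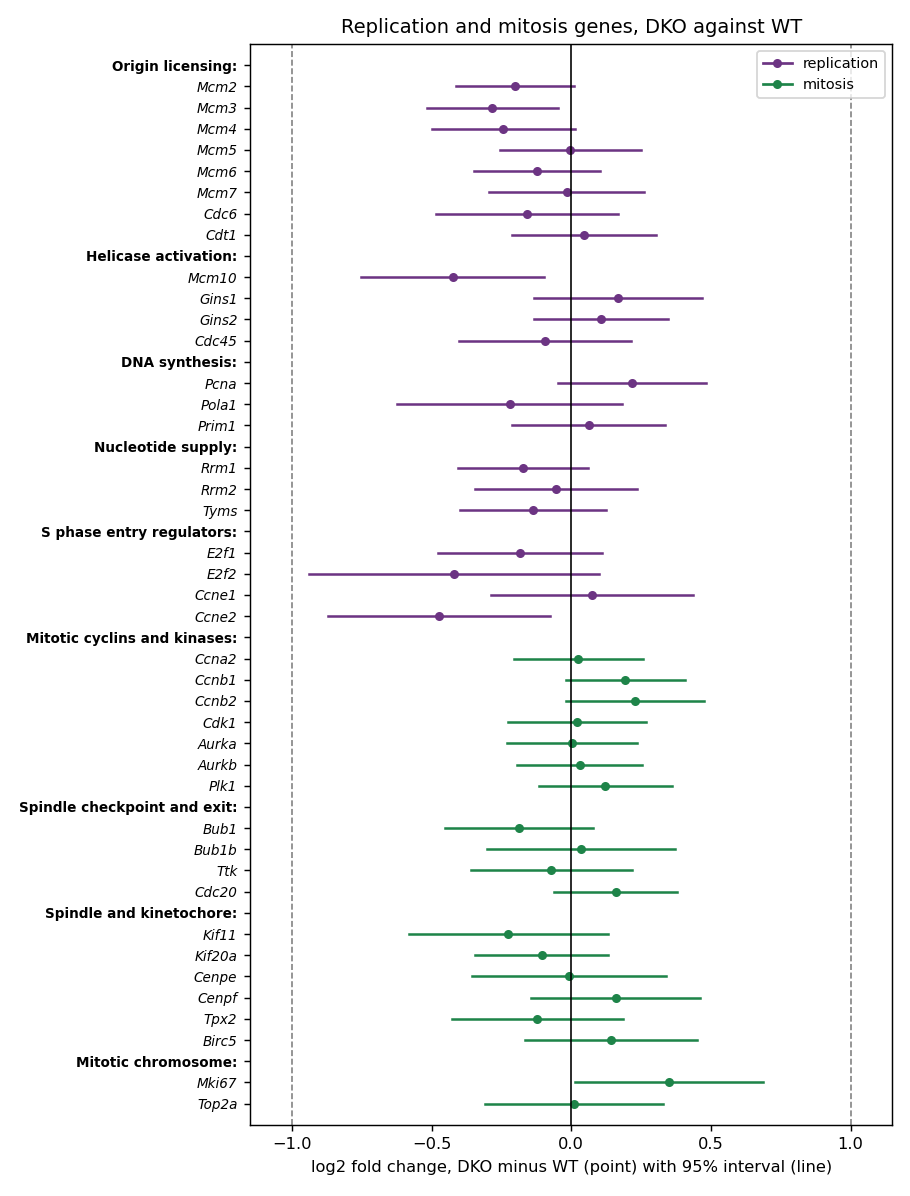
Log2 fold change of each gene, DKO minus WT (point), with its 95% interval (line), by role; the dashed lines mark a 2-fold change either way. The intervals lie within them for 41 of 41 genes, and 4 intervals exclude 0 (Mcm3, Mcm10, Ccne2 and Mki67) before adjustment over all genes.

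The labels were checked on the targeted genes and on the tissue. Sp8 was at 5.86, 2.38 and 2.80 CPM in DKO 17, DKO 40 and DKO 41, and at 34.1, 43.2 and 31.3 CPM in the WT libraries, and it fell (log2 fold change -3.29, SE 0.302, edgeR adjusted p = 0.000806). Sp6 was at 133, 13.9 and 76.9 CPM in DKO and 228, 312 and 320 CPM in WT. The groups did not overlap, with DKO the lower, though -1.94 on the log2 scale did not pass (edgeR adjusted p = 0.207). The summed level of 13 ectoderm markers was 1900 to 2620 CPM in DKO and 3170 to 3560 CPM in WT, and that of 15 ridge markers 540 to 814 CPM in DKO and 2520 to 3050 CPM in WT, with Fgf4 at 0 in every DKO library. Ectoderm and ridge sums were thus lower in every DKO library than in any WT library, but the single markers did not all follow their sum. Of the 13 ectoderm markers, 3 were called lower in DKO and 1 higher. Of the 15 ridge markers, 10 were called lower and 0 higher, and 3 had positive log2 fold changes. Limb mesenchyme markers summed to 238 to 526 CPM in DKO and 394 to 461 CPM in WT. Their single log2 fold changes ran from -3.14 to 3.32, with 1 marker called lower and 0 higher. Erythroid markers summed to 27.5 to 920 CPM in DKO, highest in DKO 41, and to 0.590 to 302 CPM in WT, highest in WT 53, with Gata1 at 0 in every WT library. The 6 neural markers summed to 9.69 to 18.0 CPM in DKO and 76.7 to 120 CPM in WT. That difference was carried almost wholly by Tubb3. Of the 4 neural markers tested, 2 had negative log2 fold changes, with 1 called lower. The other 2, Sox10 and Elavl4, had positive ones that did not pass. Foxd3 was at 0 in every library, and Elavl3 at 0 in every WT library. The 5 myogenic markers summed to 35.2 to 42.6 CPM in DKO and 20.0 to 27.5 CPM in WT, almost all of it from Met, and Myf5 and Myod1 were at 0 in every DKO library and at or under 1 CPM in WT. All 7 endothelial and all 7 macrophage markers were at or under 1 CPM in every library. Library totals ran from 64432348 to 87040786 counts, and within each group the libraries differed by more than sampling noise.

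The promoters of replication and mitosis members differed in E2F and CHR letters, while CCAAT and GC boxes were common in both. The members were chosen by roles that E2F and the MuvB complex are known to control, so this split is not independent of the choice. Of the 41 genes, 33 had a promoter window in the RefSeq table (GRCm38.p6, 250 bases before to 50 after the annotated start), 18 for replication and 15 for mitosis. E2F sites were searched as TTCCCGC, and with its variants spelled TTGGCGC, also TTCGCGC, and finally TTGCCGC, on both strands. The cell cycle homology region (CHR), which the MuvB complex binds, was searched as TTTGAA and in the variant spelled TTCGAA. E2F letters were present in 11 of 18 replication windows (61.1%) and 3 of 15 mitosis windows (20.0%), against 9.69% of the 27025 windows in the table and 16.7% of the 11979 windows of tested genes, so the mitosis share was near that of tested genes. CHR letters were present in 3 of 18 replication windows (16.7%) and 12 of 15 mitosis windows (80.0%), against 19.4% of all windows and 13.9% of those of tested genes. E2F letters were the more frequent in replication windows, and CHR letters in mitosis windows. CCAAT, the letters bound by NF-Y, was found in 13 of 18 replication (72.2%) and 14 of 15 mitosis windows (93.3%), against 37.9% of all and 38.7% of tested windows. The GC box GGGCGG, letters to which SP family factors can bind, was found in 13 of 18 replication (72.2%) and 13 of 15 mitosis windows (86.7%), against 35.9% of all windows and 63.3% of those of tested genes. The pair of CHR and CCAAT was in 12 of 15 mitosis windows (80.0%), 3 of 18 replication windows (16.7%) and 7.7% of all windows.

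**Figure D2:**
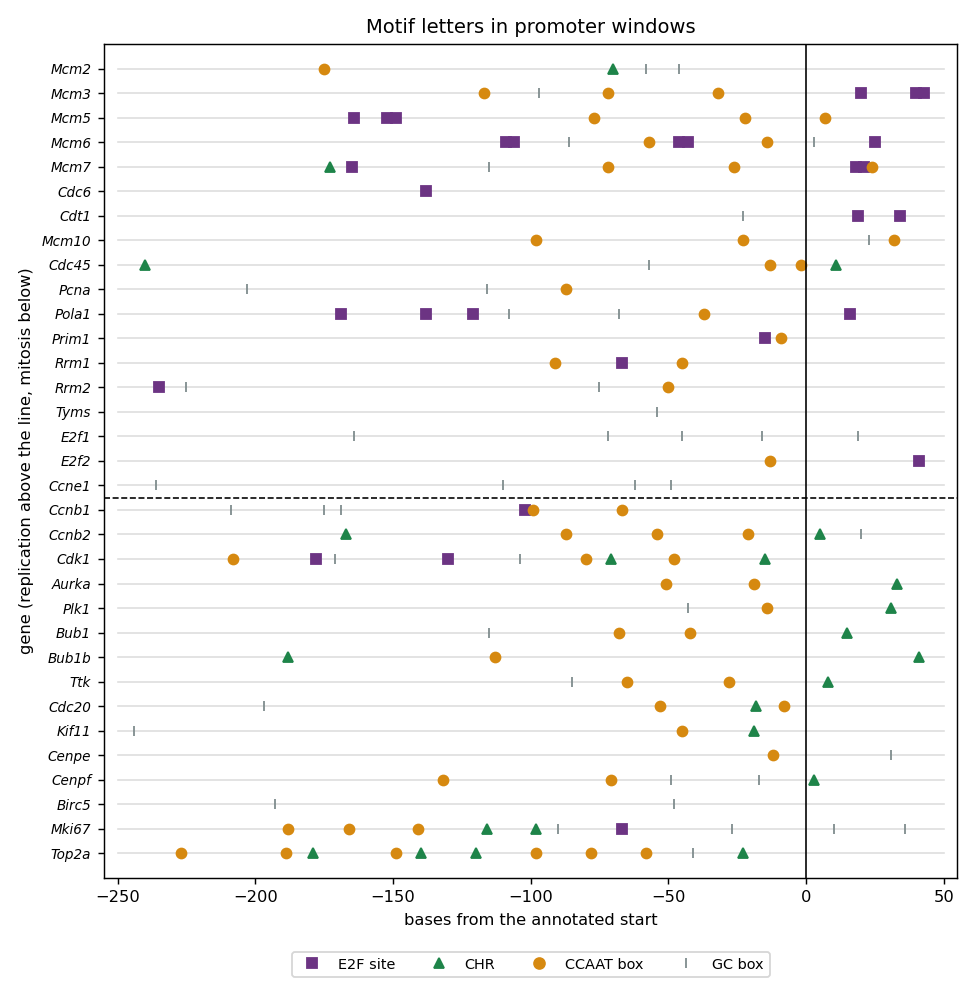
Positions of motif letters in the RefSeq promoter windows of 33 genes, replication above the dashed line and mitosis below, by distance in bases from the annotated start; each symbol is 1 match on either strand. E2F letters (squares) lie in 11 of 18 replication and 3 of 15 mitosis windows, and CHR letters (triangles) in 3 of 18 and 12 of 15.

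The 150 bases before the annotated start are printed for 6 members that show these arrangements, 5′ to 3′ on the strand of the gene, from RefSeq GRCm38.p6, with E2F, CHR and CCAAT letters of either strand in capitals. Mcm6 (chr1:128359706-128359855, minus strand) carries 2 pairs of overlapping E2F matches and 2 CCAAT matches, and Rrm1 (chr7:102441545-102441694, plus strand) 1 E2F and 2 CCAAT matches. Ccnb2 (chr9:70421555-70421704, minus strand) carries 3 CCAAT matches, with a CHR match just after the start, outside the printed stretch. Top2a (chr11:99024190-99024339, minus strand) carries 3 CHR and 4 CCAAT matches, and Kif11 (chr19:37376232-37376381, plus strand) 1 of each. Mki67 (chr7:135716380-135716529, minus strand) carries 1 E2F, 2 CHR and 1 CCAAT match.
Mcm6: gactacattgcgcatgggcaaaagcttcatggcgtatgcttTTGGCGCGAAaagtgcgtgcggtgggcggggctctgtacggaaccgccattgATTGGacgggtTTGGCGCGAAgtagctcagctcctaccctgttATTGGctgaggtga
Rrm1: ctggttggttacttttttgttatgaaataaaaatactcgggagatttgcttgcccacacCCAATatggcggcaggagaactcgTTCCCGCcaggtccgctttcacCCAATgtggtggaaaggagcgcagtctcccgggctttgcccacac
Ccnb2: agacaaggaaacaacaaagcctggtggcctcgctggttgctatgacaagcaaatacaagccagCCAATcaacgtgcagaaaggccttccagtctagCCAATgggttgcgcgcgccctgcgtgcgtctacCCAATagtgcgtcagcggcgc
Top2a: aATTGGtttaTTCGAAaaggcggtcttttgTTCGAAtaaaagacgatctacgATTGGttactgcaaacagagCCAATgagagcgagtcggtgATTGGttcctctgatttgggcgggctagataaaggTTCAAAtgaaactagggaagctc
Kif11: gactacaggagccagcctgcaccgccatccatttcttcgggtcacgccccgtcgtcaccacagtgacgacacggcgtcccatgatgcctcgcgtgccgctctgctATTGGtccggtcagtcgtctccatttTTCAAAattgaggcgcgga
Mki67: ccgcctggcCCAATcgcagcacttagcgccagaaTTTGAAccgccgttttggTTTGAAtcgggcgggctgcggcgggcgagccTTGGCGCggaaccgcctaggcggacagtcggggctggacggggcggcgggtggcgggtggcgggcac
In the letters above, the E2F matches of Mcm6 are runs in which the forward and reverse sites share bases, and in Top2a and Kif11 the CHR nearest to the start lies downstream of the CCAAT matches. A match is a stretch of letters and not a measured binding site.

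Per length, the members covered a wide range of levels in both groups. Levels between genes are compared here as CPM per kilobase of annotated exon. The length of the transcripts present was not measured, so the order of the genes is approximate. Cdc20 had the highest, at 289.5 in DKO and 259.3 in WT, followed by Rrm2 at 241 in DKO and 250.5 in WT. Pcna had 174.5 in DKO and 150.2 in WT, Ccnb2 had 167.5 in DKO and 143.1 in WT, and Plk1 had 153.4 in DKO and 141 in WT. The next genes down were nearly level, since Mcm5, Mcm3 and Mcm7 had 142.2, 140.8 and 140.4 CPM per kilobase over the 6 libraries. Mcm7 shares 557 of its exon bases (12.6%) with other genes. A processed pseudogene, Gm5487, matches Mcm7 at 97.7% identity and had 4.03 CPM in DKO and 3.85 CPM in WT. At the low end, E2f2 had 1.58 CPM per kilobase over the 6 libraries, Pola1 3.10, Cenpf 8.78, Cenpe 9.32 and Mcm10 10.7.

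**Figure D3:**
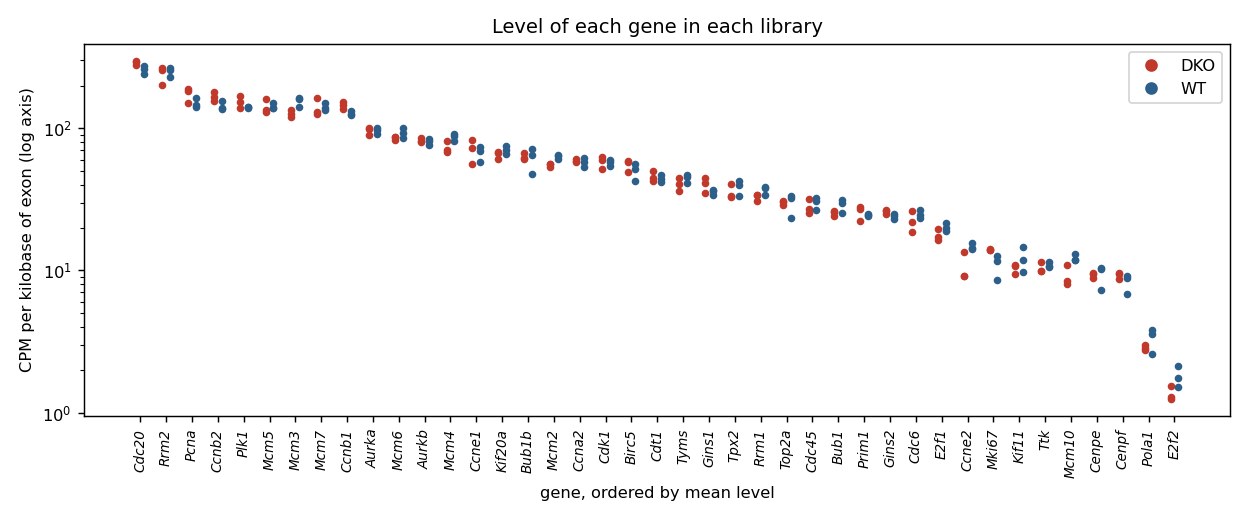
Level of each gene in each library as CPM per kilobase of exon on a log axis, ordered by the mean over the 6 libraries, with DKO left of WT. Cdc20 is highest (289.5 in DKO and 259.3 in WT, means of 3 libraries) and E2f2 lowest (1.36 in DKO and 1.80 in WT).

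Of the 8 origin licensing genes, 0 passed the test, 7 had negative log2 fold changes and the median was -0.14. The MCM proteins Mcm2 to Mcm7 form the hexameric helicase that is loaded at origins. Mcm2 (GRCm38 chromosome 6, 88883474 to 88898780) was at 389.8, 387 and 369.6 CPM in DKO 17, DKO 40 and DKO 41, and at 443, 423 and 452 CPM in WT 32, WT 53 and WT 56. Every DKO library lay below every WT library, with DKO 17 and WT 53 nearest to each other, and the log2 fold change came to -0.20 (SE 0.0928, edgeR adjusted p = 0.298). Mcm3 (chromosome 1, 20802968 to 20820312) was at 508, 453 and 469.5 CPM in DKO and 527, 609.7 and 603 CPM in WT. Its groups did not overlap either, with WT 32 nearest to the DKO libraries, and a log2 fold change of -0.28 (SE 0.104, edgeR adjusted p = 0.186). Mcm4 was at 253, 243 and 294 CPM in DKO and 315, 291 and 329 CPM in WT, with DKO 41 inside the WT range.

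The other licensing genes overlapped between the groups. Mcm5 was at 645, 540.3 and 516 CPM in DKO and 553, 598 and 555 CPM in WT, and Mcm7 at 725, 556 and 573 CPM in DKO and 594, 617 and 663 CPM in WT. In both, DKO 17 was the highest of the 6 libraries while the other 2 DKO libraries lay below every WT library. Mcm6 was at 399 ± 10.7 CPM in DKO and 434 ± 32.4 CPM in WT (SD, n = 3 each). Cdc6, the ATPase that brings the helicase to origins, was at 137, 115 and 96.9 CPM in DKO and 127, 121 and 140.0 CPM in WT, and Cdt1, its partner in loading, at 133, 156 and 141 CPM in DKO and 137, 148 and 131 CPM in WT. DKO 41 was the lowest library for Cdc6, and no library stood apart for Cdt1, the 1 licensing gene with a positive log2 fold change (0.045).

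Helicase activation turns the loaded ring into a working fork, with Cdc45 and the GINS complex bound to it and Mcm10 needed to start it. Mcm10 (chromosome 2, 4989714 to 5012791) had the lowest adjusted p of all members. It was at 83.9, 64.6 and 61.3 CPM in DKO and 91.0, 90.6 and 100.1 CPM in WT. DKO 17 lay close below the WT libraries and the other 2 DKO libraries well below them, and the log2 fold change was -0.43 (SE 0.145, 95% interval -0.75 to -0.097, edgeR adjusted p = 0.154). Leaving out each library in turn gave between -0.58 and -0.35. The GINS subunits were on the other side of 0, with Gins1 at 61.0 ± 7.08 CPM in DKO and 54.3 ± 2.24 CPM in WT and Gins2 at 106 ± 3.53 CPM in DKO and 98.5 ± 4.19 CPM in WT (SD, n = 3 each). Gins2 shares 2758 of its exon bases (67.3%) with Gse1 on the opposite strand, and the libraries are not stranded, so its counts are uncertain. Cdc45 was at 98.3 ± 12.4 CPM in DKO and 105 ± 10.9 CPM in WT.

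Among the genes of DNA synthesis, Pcna, the sliding clamp that holds polymerases on DNA, was at 452, 441 and 364 CPM in DKO and 352, 389 and 340.2 CPM in WT. DKO 17 and DKO 40 lay above every WT library and DKO 41 lay inside the WT range, and its log2 fold change of 0.22 was the highest of the replication genes (SE 0.117, edgeR adjusted p = 0.382). A processed pseudogene, Pcna-ps2, matches it at 99.2% identity and had 7.01 CPM in DKO and 5.72 CPM in WT, so a small part of these reads may be shared. Prim1, the primase subunit that makes the RNA primer, was at 86.4, 107 and 104 CPM in DKO and 94.9, 93.6 and 96.8 CPM in WT. Pola1, the polymerase that extends that primer, was at 24.5, 25.1 and 26.3 CPM in DKO and 33.7, 22.7 and 31.5 CPM in WT. The WT libraries spanned the DKO values for Pola1, with WT 53 the lowest of the 6.

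The 3 genes of nucleotide supply had negative log2 fold changes, with a median of -0.14, and 0 of 3 passed. Rrm1 (chromosome 7, 102441695 to 102469771), the large subunit of ribonucleotide reductase, was at 375, 339 and 373 CPM in DKO and 422, 376 and 429 CPM in WT. Scaled by TMM, the groups did not overlap, but DKO 17 and WT 53 were nearly level (log2 fold change -0.17, SE 0.103, edgeR adjusted p = 0.429). Scaled by library totals, DKO 41 lay above WT 53 for Rrm1, so the groups overlapped. Rrm2, the small subunit whose level follows S phase, was at 741, 708 and 554 CPM in DKO and 737, 709 and 636 CPM in WT. DKO 41 was its lowest library, and the others matched WT 32 and WT 53. Tyms, which makes thymidylate, was at 246 ± 26.4 CPM in DKO and 271 ± 16.6 CPM in WT (SD, n = 3 each), and part of its transcript matches 19 other genes at 95% identity or more.

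The regulators of S phase entry held the member with the most negative log2 fold change. Cyclin E2, encoded by Ccne2 (chromosome 4, 11191351 to 11204779), activates Cdk2 at the start of S phase and is itself an E2F target. It was at 47.1, 32.0 and 32.2 CPM in DKO and 54.9, 50.2 and 49.4 CPM in WT. DKO 17 was close to WT 56 and the other 2 DKO libraries were lower, and the log2 fold change was -0.47 (SE 0.176, 95% interval -0.87 to -0.077, edgeR adjusted p = 0.190). Without DKO 17 it was -0.68 and passed (edgeR adjusted p = 0.0441), the only member called with any single library left out. Its exons share 609 bases (17.4%) with Ints8 on the opposite strand, whose own mean was 63.0 CPM in DKO and 81.3 CPM in WT. The share of Ints8 reads in the Ccne2 counts was not tested. Its paralogue Ccne1, of the same function, was at 221, 195 and 149.7 CPM in DKO and 184, 198 and 155 CPM in WT, and the WT range lay wholly inside the DKO range. E2f1, the activator of replication genes, was at 54.6, 61.9 and 51.5 CPM in DKO and 59.7, 68.5 and 62.6 CPM in WT, and E2f2, a second activator, at 7.48, 6.31 and 6.06 CPM in DKO and 10.3, 7.40 and 8.58 CPM in WT. For both, DKO 41 was lowest and 1 DKO library lay inside the WT range.

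All 7 mitotic cyclins and kinases had positive log2 fold changes, most of them near 0 (median 0.030), and 0 of 7 passed. The sign of Aurka, at 0.0013, turned to -0.0059 with DESeq2 size factors. Cyclin B1, encoded by Ccnb1 (chromosome 13, 100778650 to 100786570), activates Cdk1 to open mitosis. It was at 576, 641 and 620.0 CPM in DKO and 533, 554 and 519.9 CPM in WT. Every DKO library lay above every WT library (log2 fold change 0.19, SE 0.0942, edgeR adjusted p = 0.328). It has 4 near-identical pseudogenes, of which Ccnb1-ps had the most reads, with 8.41 CPM in DKO and 6.37 CPM in WT. Cyclin B2, encoded by Ccnb2 (chromosome 9, 70407692 to 70421547), was at 254, 277 and 239 CPM in DKO and 208, 237 and 212 CPM in WT. Its groups were separated only by the small gap between DKO 41 and WT 53 (log2 fold change 0.23, SE 0.109, edgeR adjusted p = 0.317).

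The partners of these cyclins were level. Cdk1, the kinase that both cyclins activate, was at 309, 294 and 257 CPM in DKO and 293, 287 and 267 CPM in WT, and Ccna2, the cyclin of S phase and G2, at 248, 239 and 235 CPM in DKO and 252, 238 and 219.7 CPM in WT. For Cdk1 the WT range lay wholly inside the DKO range, and for Ccna2 the reverse held. Aurka, the kinase of spindle poles, was at 252, 255 and 228 CPM in DKO and 247, 256 and 231 CPM in WT, with equal means of 245 CPM. Aurkb, the kinase of the chromosomal passenger complex, was at 239, 251 and 234 CPM in DKO and 246, 223 and 239.9 CPM in WT. For these 4 genes the 95% intervals lay between -0.23 and 0.27. Plk1, which acts from mitotic entry to cytokinesis, was at 369, 338 and 305 CPM in DKO and 311, 306 and 313 CPM in WT, with DKO 17 the highest library and DKO 41 the lowest.

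The spindle checkpoint holds cells until each chromosome is attached, and Cdc20, the activator of the anaphase-promoting complex, then ends it. Cdc20 (chromosome 4, 118432901 to 118437352) was at 557, 546 and 519.6 CPM in DKO and 451, 515 and 486 CPM in WT. The groups did not overlap, with DKO 41 and WT 53 nearly level (log2 fold change 0.16, SE 0.0974, edgeR adjusted p = 0.448). The checkpoint kinase Bub1 was at 115, 106 and 112 CPM in DKO and 136, 111 and 130.1 CPM in WT, and Ttk, the kinase that starts checkpoint signalling, at 56.6, 48.4 and 48.9 CPM in DKO and 56.7, 51.8 and 53.1 CPM in WT. Bub1b, a subunit of the checkpoint complex that restrains Cdc20, was at 287, 264 and 259.8 CPM in DKO and 279.5, 205 and 306 CPM in WT. For Bub1, 2 WT libraries lay above every DKO library, and for Ttk 2 DKO libraries lay below every WT library. For Bub1b the WT libraries spanned all DKO values, with WT 53 the lowest of the 6.

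The 6 spindle and kinetochore genes had 2 positive and 4 negative log2 fold changes (median -0.057), 0 of 6 passed, and in each the groups overlapped. Kif11, the motor that pushes spindle poles apart, was at 81.1, 70.2 and 80.4 CPM in DKO and 89.0, 73.1 and 109 CPM in WT, and WT 56 was its highest library. Cenpe, the kinetochore motor, was at 76.6, 80.7 and 83.2 CPM in DKO and 88.5, 62.9 and 89.9 CPM in WT, and Cenpf, a large protein of the G2 nuclear matrix and kinetochore, at 135, 145 and 149 CPM in DKO and 138, 106 and 141 CPM in WT. For both, WT 53 was well below the other 5 libraries, which were close together. Kif20a, a motor of cytokinesis, was at 283 ± 18.3 CPM in DKO and 304 ± 19.6 CPM in WT, and shares 1271 exon bases (29.3%) with Cdc23 on the opposite strand. Tpx2, which activates Aurora A on the spindle, was at 166 ± 19.7 CPM in DKO and 181 ± 22.4 CPM in WT. Birc5, the survivin subunit of the passenger complex, was at 189 ± 18.5 CPM in DKO and 171 ± 23.9 CPM in WT (SD, n = 3 each).

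Of the 2 genes of mitotic chromosomes, Mki67, which encodes the proliferation marker Ki-67 that coats mitotic chromosomes, had the highest log2 fold change of all members. Mki67 (chromosome 7, 135689784 to 135716361) was at 140.2, 141 and 142 CPM in DKO and 128, 86.5 and 117 CPM in WT. The DKO libraries were almost level, with a coefficient of variation of 0.747%, while WT 53 was far below the other WT libraries. The log2 fold change was 0.35 (SE 0.149, 95% interval 0.014 to 0.69, edgeR adjusted p = 0.256), and without WT 53 it was 0.20. Top2a, the topoisomerase that untangles sister chromatids, was at 259.9, 276 and 273 CPM in DKO and 291, 211 and 299.9 CPM in WT. WT 53 was again the lowest, the other 2 WT libraries lay above the DKO libraries, and the log2 fold change came to 0.0095 (SE 0.141, edgeR adjusted p = 0.983).

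**Figure D4:**
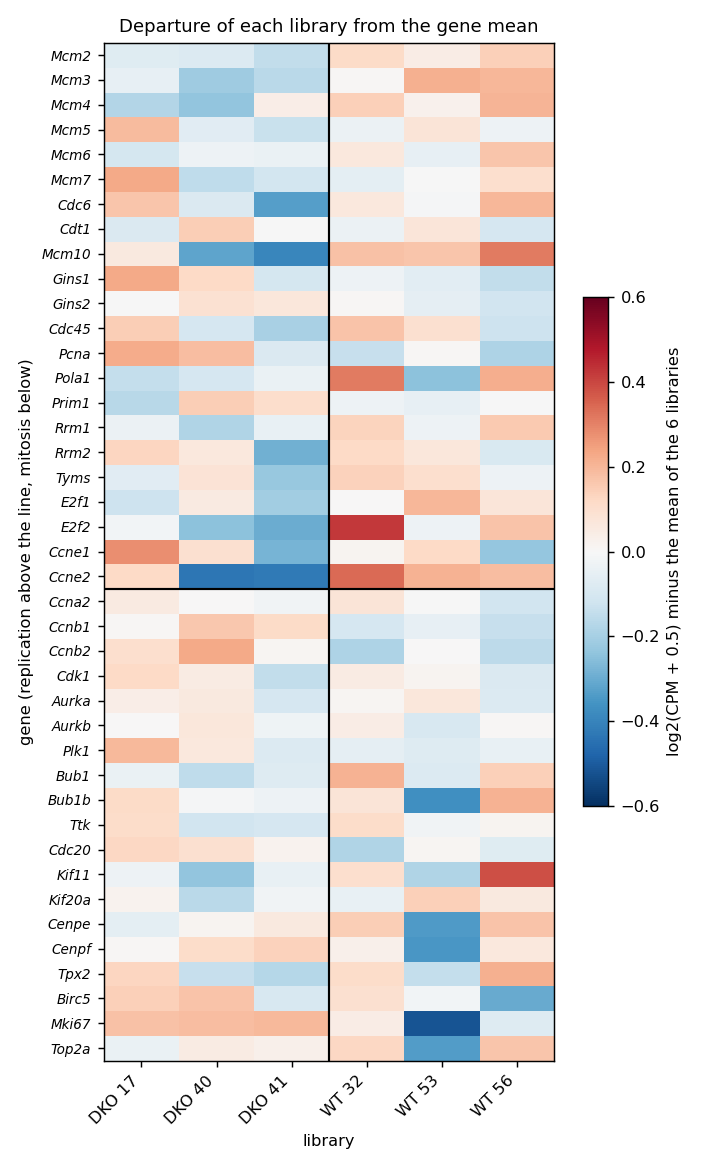
Departure of each library from the gene's mean over the 6 libraries, on log2(CPM + 0.5), with replication genes above the line and mitosis genes below it, and DKO left of WT. DKO 41 is the lowest library for 10 of 22 replication genes, and WT 53 is lowest for Pola1, Cenpe, Cenpf, Mki67 and Top2a.

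Although 0 members passed, the replication genes lay mostly below 0 and the mitosis genes mostly above it. Of 22 replication genes, 16 had a negative log2 fold change (72.7%) with a median of -0.13, and of 19 mitosis genes 13 had a positive one (68.4%) with a median of 0.025. Over all genes tested, 46.9% were negative and 53.1% positive, with a median of 0.030, near the mitosis median. Over the 9804 genes tested with 10 CPM or more in the higher group the median was -0.011, below the mitosis median. The replication median lay below both. Scaled by TMM, the groups did not overlap in 9 of 41 genes (22.0%), a share near the 21.9% of all genes tested. Scaled by library totals, the groups of Rrm1, counted among these, overlapped. The 5 with DKO below WT, Mcm2, Mcm3, Mcm10, Rrm1 and Ccne2, were replication genes (5 of 22, or 22.7%, against 11.3% of all genes tested). The 4 with DKO above WT, Ccnb1, Ccnb2, Cdc20 and Mki67, were mitosis genes (4 of 19, or 21.1%, against 10.6%). These shares describe the members and were given no test.

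Scaled by TMM, the summed levels overlapped between the groups, while their ratio did not. The 22 replication genes summed to 5797, 5376 and 5055 CPM in DKO 17, DKO 40 and DKO 41, and to 5729, 5753 and 5740 CPM in WT 32, WT 53 and WT 56. The means were 5410 ± 372 CPM in DKO and 5741 ± 12.1 CPM in WT (SD, n = 3 each), so the DKO libraries were spread widely around a lower mean and DKO 17 lay above every WT library. The 19 mitosis genes summed to 4638, 4592 and 4394 CPM in DKO and 4410, 4181 and 4385 CPM in WT, and DKO 41 lay inside the WT range. Scaled by library totals in place of TMM, neither sum overlapped between the groups, at 5239 to 5646 CPM in DKO and 5656 to 5764 CPM in WT for replication and 4518 to 4626 CPM in DKO and 4111 to 4404 CPM in WT for mitosis. The ratio of the mitosis sum to the replication sum, which needs no scaling between libraries, was 0.800, 0.854 and 0.869 in DKO and 0.770, 0.727 and 0.764 in WT. Every DKO library lay above every WT library, with means of 0.841 ± 0.0363 in DKO and 0.753 ± 0.0233 in WT, or 0.16 on the log2 scale. Groups of 3 and 3 that do not overlap were found for 21.9% of all genes tested, and no p is given for this ratio.

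**Figure D5:**
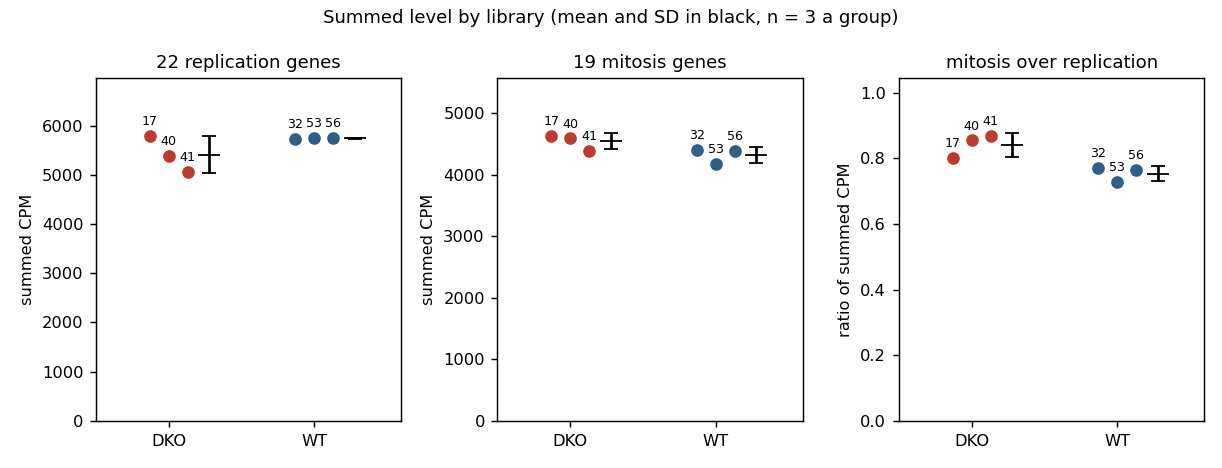
Summed CPM of 22 replication genes (left) and 19 mitosis genes (middle), and the ratio of the mitosis to the replication sum (right), in each library, with the mean and SD of 3 libraries in black. The ratio is 0.800 to 0.869 in the DKO libraries and 0.727 to 0.770 in the WT libraries, while each sum, scaled by TMM, overlaps between the groups.

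In other genes of the same pathways the ratio depended on how the genes were weighted. Of 174 further genes of replication and mitosis, 0 were called by edgeR, 23 (13.2%) had an unadjusted p under 0.05, against 18% of all genes tested, and the median log2 fold change was -0.042. Over 81 of them that act in mitosis and 58 in replication, the ratio of sums was 1.36, 1.45 and 1.46 in DKO and 1.35, 1.31 and 1.28 in WT. Left out were the cell cycle kinase regulators and the E2F, RB and DREAM regulators, although the members' ratio includes genes of such roles. When each gene counted alike, as a ratio of geometric means, the groups of these other genes overlapped, at 0.711, 0.744 and 0.788 in DKO and 0.748, 0.692 and 0.744 in WT. For the members themselves the ratio of geometric means was 1.29, 1.34 and 1.38 in DKO and 1.22, 1.13 and 1.24 in WT, without overlap.

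Within these further genes no list held a call. In kinetochore and spindle checkpoint genes 19 of 30 had a positive log2 fold change, in polymerase, clamp and fork genes 7 of 25, in licensing genes 8 of 21, and in genes of the spindle, motors and cytokinesis 7 of 22, where 53.1% of all genes tested were positive. In chromosome condensation and separation genes it was 14 of 29, in cell cycle kinase regulators 8 of 16 and in nucleotide supply 4 of 12. The mitosis lists thus did not all lean to positive values. The E2F, RB and DREAM regulators had 6 of 19 positive and a median of -0.13. The 3 genes with the lowest adjusted p were chosen after their values were seen. Mad2l1, the checkpoint protein that binds Cdc20, was at 303, 272 and 208 CPM in DKO and 188, 179 and 176 CPM in WT (log2 fold change 0.53, SE 0.143, edgeR adjusted p = 0.0766). Cdca3, a trigger of mitotic entry, was at 222 ± 25.7 CPM in DKO and 167 ± 5.25 CPM in WT, and Cep55, which acts in the last step of cytokinesis, at 24.3 ± 4.75 CPM in DKO and 37.7 ± 2.99 CPM in WT (SD, n = 3 each). In each of these the groups did not overlap, with DKO above WT for Mad2l1 and Cdca3 and below it for Cep55. Genes picked for a low p tend to have groups apart. Over all 174 further genes, DKO lay wholly above WT in 10 of 174 and wholly below it in 18 of 174. Both shares were below those of all genes tested, at 10.6% and 11.3%.

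The libraries of a group differed from each other in the levels of the members. Within groups, the median coefficient of variation of the replication genes was 11.4% in DKO and 6.66% in WT, and that of the mitosis genes 5.45% in DKO and 7.06% in WT. DKO 41, the library with the most erythroid RNA, was the lowest of the 6 for 10 of 22 replication genes and 4 of 19 mitosis genes. WT 53, the WT library with the most erythroid RNA, was the lowest for 1 of 22 replication genes and 6 of 19 mitosis genes. Without DKO 41 the median log2 fold change of the replication genes was -0.061, and without DKO 17 it was -0.16. DKO 17 had the most Sp6, Sp8 and ridge marker RNA of the DKO libraries, at 133, 5.86 and 814 CPM. A link of these levels to the members was not tested. The departures also went with annotated exon length, in a direction that differed between libraries. The length of the transcripts present was not measured. Over the 41 genes, the departure of a library from the gene's mean and the annotated exon length had a Spearman correlation of -0.328 for DKO 17 and -0.401 for DKO 40, against 0.105 for DKO 41. In the WT libraries it was 0.524 for WT 32, -0.392 for WT 53 and 0.580 for WT 56. Over 9801 genes with 10 CPM or more it had the same sign in each library, from -0.310 in DKO 40 to 0.375 in WT 56. These correlations are across genes that share a library and carry no p.

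The members with the most annotated exon bases departed most in WT 53 and WT 56. In the 8 members with 7000 exon bases or more, a limit set after the values were seen, WT 53 was lowest in 5 (Pola1, Cenpe, Cenpf, Mki67 and Top2a). Its median departure was -0.29 on the log2 scale in these 8 and 0.00040 in the 33 shorter members. WT 56 was highest in 5 of the 8, with a median departure of 0.17 against -0.030 in the shorter members. In the DKO libraries the median departure of the 8 was small, between -0.043 and -0.0043, and that of the shorter members was 0.10 in DKO 17, 0.051 in DKO 40 and -0.10 in DKO 41. With the 33 shorter members alone the ratio of mitosis to replication was 0.743, 0.784 and 0.798 in DKO and 0.709, 0.692 and 0.701 in WT, again without overlap. The part of RNA quality, erythroid RNA or coverage of long transcripts in the values of the members was not tested.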

How the data were processed

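RNA of peeled E9.75 forelimb-bud ectoderm was sequenced after SMART-Seq v4 and Nextera XT preparation, per the labels' protocols; this chemistry marks neither strand nor molecules. The values are raw gene counts as the authors deposited them, all of them whole numbers, and the 6 columns were taken as the 3 DKO and 3 WT samples by group only, since their numbers match no replicate number of the labels. The labels describe 10 samples in 4 groups, of which the E10.5 samples were not analysed here. The submitters' processing notes name HISAT2, StringTie, Cufflinks and DESeq2, besides FastQC and fastp, and the builds mm10 and GRCm38. Versions, roles and the counting step: not given in the sources used here.

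From the counts, filterByExpr left 19126 of 55401 genes, and DKO was compared with WT by edgeR 4.0.16 (TMM, glmQLFit with robust=TRUE and legacy=FALSE, quasi-likelihood F test, R 4.3.3), with Benjamini-Hochberg adjustment over those genes and a gene counted as called where its adjusted p was below 0.05. Fold changes are on the log2 scale, DKO minus WT, and 95% intervals use the SE and the degrees of freedom of the test. DESeq2 1.42.0 and limma 3.58.1 (voom) were run as alternatives, with other scalings, no filter and single libraries left out. The scripts were tested on simulated data. The labels do not say which embryo or litter gave a sample, so p-values measure only the spread between these samples.

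Exon lengths and overlaps came from GENCODE M21 on GRCm38 (55141 of 55401 identifiers matched), near-identical copies from blastn 2.17.0 (95% identity over 200 bases or more), and promoters from RefSeq (first listed window of a gene). The 41 members, their split by role, the list of 177 symbols of other pathway genes (174 genes after older names were merged) and the marker lists were chosen with earlier results of these data known. All members are named, Sp8 and Sp6 as a check of the labels, and other genes only if called, unless stated.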

Additional observations from a re-analysis of the deposited data

How the results depend on the processing

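No paired analysis was possible because the column numbers match no replicate number of the labels. No member was called under either other scaling, without the filter, by DESeq2, by limma-voom or with legacy=TRUE, and with each library left out in turn between 0 and 1 were called lower (Ccne2 without DKO 17, where Mcm10 had an edgeR adjusted p of 0.0503) and 0 higher. All genes called numbered 863 as reported, 412 without the filter, 1696 by DESeq2, 546 with legacy=TRUE, 377 without both WT 32 and DKO 41, and 247 to 918 with single libraries left out; the causes were not tested. The median log2 fold change of the replication genes was -0.16 to -0.061 with single libraries left out, and that of the mitosis genes 0.0027 to 0.049. The share of mitosis windows with a GC box was 53.3% in the shorter window of 100 bases before to 50 after the start, a window with fewer bases to match, in which 53.4% of the windows of tested genes held it. E2F letters were there in 6.67% of mitosis and 44.4% of replication windows, against 9.79% of those of tested genes. Members close to 0 changed sign: Aurka to -0.0059 with DESeq2 size factors, -0.0060 by DESeq2 and -0.013 without the filter, Top2a to -0.0085 without the filter, Mcm5 to 0.038, Mcm7 to 0.025 and Cenpe to 0.036 with upper-quartile scaling, and Cenpe to 0.00068 by limma-voom. Without WT 32 and DKO 41 together, Mcm5 was at 0.010, Cdc45 at 0.013, Prim1 at -0.0083, Rrm2 at 0.077 and Cenpe at 0.0039. With single libraries left out, log2 fold changes ran from -0.047 to 0.042 for Aurka, -0.010 to 0.042 for Aurkb, -0.12 to 0.15 for Bub1b, -0.033 to 0.049 for Ccna2, -0.056 to 0.21 for Ccne1, -0.038 to 0.086 for Cdk1, -0.021 to 0.097 for Cdt1, -0.15 to 0.071 for Cenpe, -0.11 to 0.052 for Mcm5, -0.15 to 0.054 for Mcm7, -0.14 to 0.054 for Rrm2 and -0.13 to 0.092 for Top2a. Members not named among these sign changes kept their sign in every alternative run. Groups of 3 limit the precision, and 37 of 41 members had a 95% interval that reached past a 1.2-fold change.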
